A study of Rattus norvegicus with 18 samples.

Results

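Hippocampal DNA methylation was compared between the sham rats of 2 epilepsy models, the rats that serve as each model's baseline. They were chosen by their group label: 7 sham rats of the kainic acid model and 4 sham rats of the kindling model, 11 of the 18 rats measured. All were adult male Sprague-Dawley rats, a widely used outbred laboratory stock, and the DNA came from the left hippocampus. In the kainic acid model, systemic injection of a glutamate receptor agonist provokes prolonged seizures after electrodes are implanted. In the kindling model, electrodes in the hippocampus deliver repeated brief stimulation until full seizures follow. The surgery, injection, handling and timing of the sham rats themselves are stated nowhere in the sources used here. The other 7 rats, 4 of the kindling and 3 of the kainic acid model, had 3 class V seizures and were taken 24 hours after the last one. They entered the comparison of sham rats only in an alternative fit over all 4 groups, where they add to the variance. Otherwise they are used below only to look at the same positions in other rats.

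In mammalian DNA, methylation sits mainly on the cytosine of a CpG. Most of the genome carries few CpGs, and these are largely methylated in adult brain, while stretches dense in CpGs, typical of gene starts, are largely unmethylated. Intermediate levels arise where cells, or both copies of a chromosome, differ. Reduced representation bisulfite sequencing cuts DNA with MspI at CCGG sites, which enriches for CpG-dense DNA, and then converts unmethylated cytosines so that they read as thymine. A thymine already present in the rat's own DNA at that place is read in the same way.

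The autosomes held 2279082 measured cytosines, each strand of a CpG on its own. They were averaged in tiles, non-overlapping stretches of 1000 bp with at least 3 measured cytosines, which gave 147493 tiles on 20 autosomes. Tiles were classed by density, as sparse (3 to 9 measured cytosines), middle (10 to 29) or dense (30 or more). They were also classed by level, the mean of both sham group means, as under 10%, 10 to 50%, 50 to 90% or above 90%. Levels are given in percent and differences in percentage points, always as kainic acid sham minus kindling sham. The libraries of the groups carry separate runs of library numbers and no other batch label, so that model, surgery and library series cannot be told apart in any difference below. Each rat has its own library, and p-values measure the spread between these rats.

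The mean level over all autosomal tiles was nearly the same in both sham groups. The kindling sham rats 1 to 4 had 68.8, 68.2, 68.7 and 68.6%, a mean of 68.6% ± 0.287 (SD, n = 4). The kainic acid sham rats ran from 68.3 to 68.8% with a mean of 68.6% ± 0.189 (SD, n = 7). The difference of 0.0151 points was smaller than the spread between rats of either group (two-sided exact permutation test, p = 0.915). This design allows 330 arrangements of the rats, so that p cannot go below 0.00606. By chromosome, the mean was higher in the kainic acid sham rats on 11 of 20 autosomes. The differences ran from -0.0419 to 0.0893 points and none passed the exact test (adjusted p = 1 for every autosome).

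None of the 12 density and level classes differed between the sham groups (two-sided exact permutation test, Benjamini-Hochberg adjusted p = 0.873 for every class). The sparse classes held 2017 tiles under 10%, 9332 at 10 to 50%, 39229 at 50 to 90% and 41569 above 90%. In sparse tiles of 10 to 50%, where the difference was largest, the kindling sham rats 1 to 4 had mean levels of 32.8, 31.7, 34.3 and 33.7%. The kainic acid sham rats had 32.8% at the lowest, 33.4% at the median and 33.8% at the highest. The kindling rats lay on both sides of the kainic acid rats, and the group difference of 0.257 points was smaller than the kindling SD of 1.13. In sparse tiles of 50 to 90% the group means were 76.3% ± 0.323 (SD, n = 4) and 76.4% ± 0.242 (SD, n = 7). In sparse tiles above 90% they were 95.9% ± 0.176 (SD, n = 4) and 95.8% ± 0.0728 (SD, n = 7). Both of these classes overlapped between groups, with differences of 0.0237 and -0.0830 points.

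Dense tiles under 10%, the class of unmethylated CpG-rich DNA, numbered 7694. Their mean level was 6.92, 5.96, 6.55 and 5.79% in the kindling sham rats 1 to 4. In the kainic acid sham rats it was 5.85% at the lowest, 6.36% at the median and 6.85% at the highest. The groups spanned nearly the same range, and the difference was 0.0542 points. Dense methylated tiles were few, 776 at 50 to 90% and 528 above 90%, and differed by -0.0813 and -0.0485 points. The middle classes differed by 0.0699, 0.154, 0.0231 and -0.0416 points in order of rising level. The plot of class levels by rat shows this overlap in each class.

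**Figure D1:**
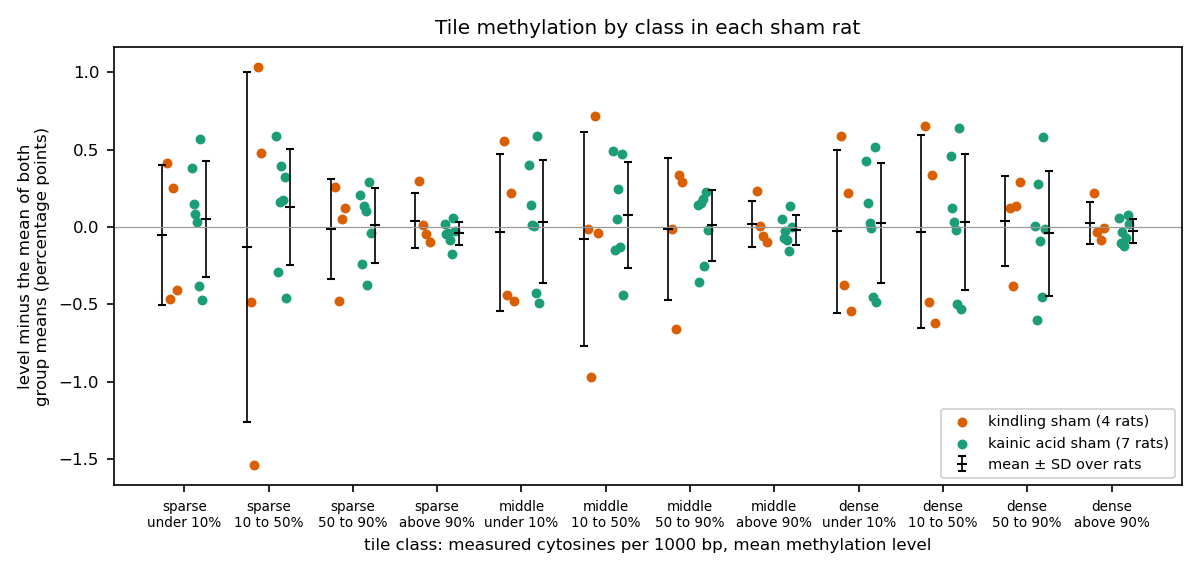
Mean methylation level of each density and level class of autosomal tiles in each sham rat, in percentage points relative to the mean of both group means of that class. Points are rats, orange for 4 kindling sham and green for 7 kainic acid sham rats, and bars are the group mean ± SD. The groups overlap in all 12 classes, and the widest spread is in kindling sham rats for sparse tiles of 10 to 50%.

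The deposited values are fractions without read counts, so the depth of each library is unknown. Measures that coarse or sparse reading would move were therefore set beside the levels. The share of autosomal values of exactly 0 was 9.66, 16.9, 18 and 25.3% in the kindling sham rats 1 to 4. In the kainic acid sham rats it was 9.01% at the lowest, 13% at the median and 20.6% at the highest. The groups overlapped and their difference of -3.74 points did not pass the test (two-sided exact permutation test, p = 0.248, adjusted 0.248 over 2 measures). The SD of the difference between both strands of a CpG, over 986425 CpGs, was 5.29, 5.54, 6.44 and 6.44 points in the kindling sham rats. In the kainic acid sham rats it was 4.83 points at the lowest, 5.34 at the median and 5.98 at the highest. Kindling sham rats 3 and 4 lay above every kainic acid rat, but the group difference of -0.554 points did not pass (exact permutation test, p = 0.0909, adjusted 0.182). The share of values of exactly 100%, looked at afterwards and outside that pair of tests, was 11.1% ± 1.38 (SD, n = 4) in kindling and 9.14% ± 0.738 (SD, n = 7) in kainic acid sham rats (exact permutation test, unadjusted p = 0.0242).

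Across rats, the level of the unmethylated class was lower where the share of exact zeros was higher. Over the 11 sham rats, Pearson's r between the share of zeros and the mean level of dense tiles under 10% was -0.810 (permutation p = 0.0020, adjusted 0.0030 over 3 relations). Spearman's rho was -0.791 (permutation p = 0.0058, adjusted 0.0133), and r was -0.714 without kindling rat 4 and kainic acid rat 5, the rats farthest from the median share. Both measures use the same cytosines, so this is not a relation of independent quantities. Within the 7 kainic acid sham rats r was -0.878 (exact permutation p = 0.0048, adjusted 0.0143) and rho was -0.857 (exact permutation p = 0.0238, adjusted 0.0714). The 4 kindling sham rats are too few for a value of their own. For sparse tiles above 90%, r was -0.639 and rho -0.718 over all sham rats (permutation p = 0.0106 and 0.0162, the same after adjustment), and r was -0.541 without the same pair of rats. Within the kainic acid rats r was -0.871 (exact permutation p = 0.0262, the same after adjustment) and rho -0.643 (exact permutation p = 0.139). That r fell to -0.0612 without kainic acid rats 5 and 6, so the relation there rests on those rats.

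**Figure D2:**
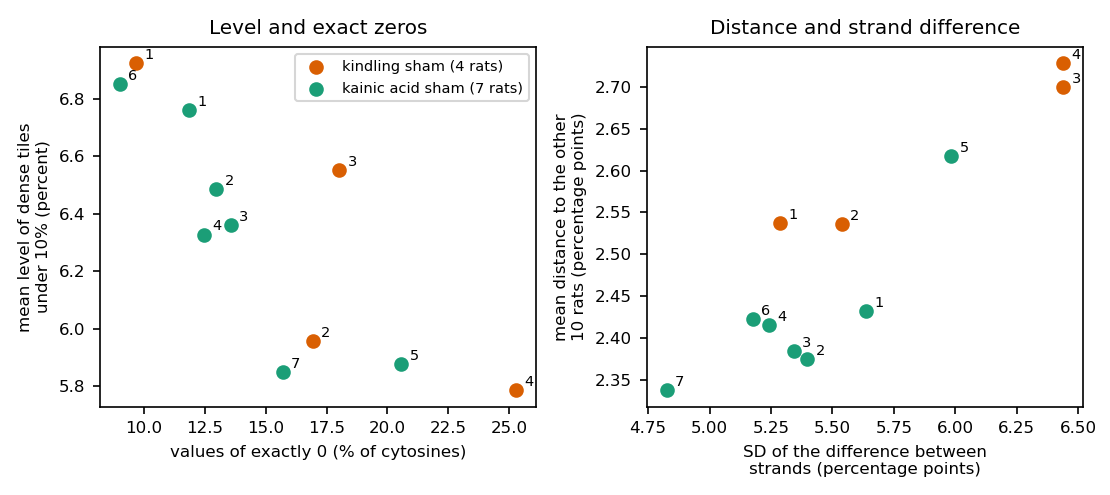
Left, mean level of dense tiles under 10% (percent) against the share of autosomal values of exactly 0 (percent of cytosines). Right, mean distance to the other 10 sham rats against the SD of the difference between strands (both in percentage points). Each point is a sham rat with its replicate number, orange for kindling and green for kainic acid. The level is lower where the share of zeros is higher, though kindling rat 3 lies above kindling rat 2, and kindling rats 3 and 4 sit at the upper right of the second panel.

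The rats varied among themselves most where methylation was intermediate and measured cytosines were few. The range of a tile over the 11 sham rats had a median of 4.94 points, and 6717 tiles (4.55%) ranged over at least 20 points. Such wide ranges made up 16.8% of sparse tiles of 10 to 50% and 11.2% of sparse tiles of 50 to 90%. Among denser tiles of intermediate level the share was lower, 2.10% of middle tiles of 10 to 50% and 2.58% of middle tiles of 50 to 90%. Among the dense tiles it was 0.163% at 10 to 50% and 1.93% at 50 to 90%. No dense tile under 10% ranged so far, and the median range there was 1.70 points. A sparse tile averages fewer cytosines than a dense one, and the part of that number in the range was not tested.

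The distance between a pair of rats was taken as the mean absolute difference over all autosomal tiles. Pairs of kindling sham rats lay 2.38 to 2.88 points apart, with a mean of 2.77. Pairs of kainic acid sham rats lay 2.16 to 2.60 points apart, with a mean of 2.34. Pairs across the groups lay 2.24 to 2.82 points apart, with a mean of 2.56. The distance across groups lay between those within them, and the mean across groups minus the mean of both within-group means was 0.00735 points (two-sided exact permutation test, p = 0.661). Without kindling rats 3 and 4 this value was 0.112 points (exact permutation p = 0.111), so its size rests on those rats. The nearest rat of each of the 7 kainic acid sham rats was another kainic acid sham rat. The nearest rat of each of the 4 kindling sham rats was also a kainic acid sham rat, at 2.24, 2.28, 2.55 and 2.56 points for rats 1 to 4. With 7 kainic acid and 4 kindling sham rats, group size alone favours a kainic acid rat as the nearest.

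**Figure D3:**
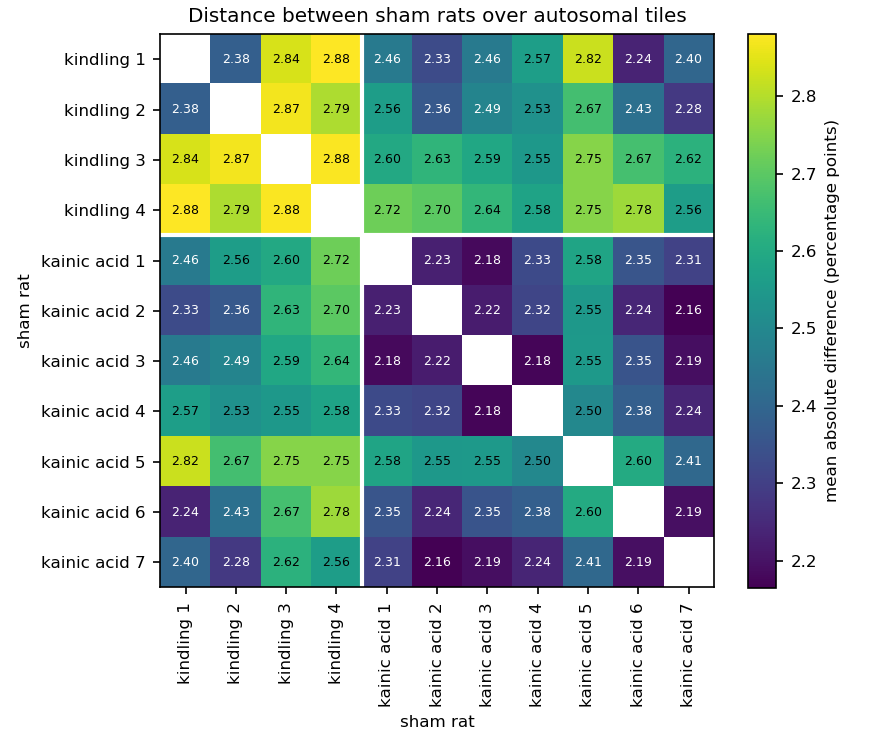
Distance between each pair of sham rats, as the mean absolute difference in methylation over 147493 autosomal tiles, in percentage points. White lines part the 4 kindling from the 7 kainic acid sham rats. The largest values are in pairs that include kindling rats 3 or 4, or kainic acid rat 5, though not every such pair is large.

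Within its own group a kindling sham rat differed more from the others than a kainic acid sham rat did. The within-group mean was 0.437 points larger among kindling sham rats (two-sided exact permutation test, p = 0.0182). The mean distance to the own group was 2.70, 2.68, 2.86 and 2.85 points for the kindling sham rats 1 to 4. For the kainic acid sham rats 1 to 7 it was 2.33, 2.29, 2.28, 2.32, 2.53, 2.35 and 2.25 points. The difference lost the threshold of 0.05 without kindling rat 3 (0.349 points, exact permutation p = 0.0833) and without kindling rat 4 (0.361 points, exact permutation p = 0.050). Without both it was 0.0463 points (exact permutation p = 0.833), which leaves 2 kindling rats and so 1 pair of them. Both rats were picked for leaving out after the data were seen. They lie farthest from their group, so that leaving them out favours a smaller value. Rats 3 and 4 are also those with the largest strand difference, whose part in the result was not tested. Over the 11 sham rats the strand-difference SD and the mean distance to the other rats had r = 0.907 (permutation p = 0.0004, adjusted 0.0011) and rho = 0.764 (permutation p = 0.0089, adjusted 0.0133). Without kindling rats 3 and 4, r was 0.739. Distances share rats and are not independent. Within the kainic acid rats r was 0.852 and rho 0.643 (exact permutation p = 0.0234 and 0.139, adjusted 0.0262 and 0.139), and r was 0.114 without rats 5 and 7.

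The larger spread of the kindling sham rats appeared in all 12 classes, with a ratio of the within-group distances from 1.11 to 1.34. In 5 classes it passed the exact permutation test after adjustment over the 12 classes (adjusted p = 0.0436 in each). These were sparse tiles of 10 to 50% (5.20 points in kindling, 4.22 in kainic acid), sparse tiles of 50 to 90% (4.54 and 3.85), middle tiles of 10 to 50% (2.62 and 2.03), middle tiles of 50 to 90% (3.29 and 2.74) and dense tiles of 50 to 90% (2.90 and 2.35). All 5 are classes of intermediate level, but the larger spread was not particular to such classes. Dense tiles of 10 to 50%, also intermediate, had the largest ratio, 1.34, and did not pass (exact permutation test, adjusted p = 0.105). In dense tiles under 10% the distances were 0.798 and 0.635 points (exact permutation test, adjusted p = 0.185). Their ratio was 1.26, beside 1.18 in sparse tiles of 50 to 90%, which passed. Without kindling rat 3 or without rat 4, 0 classes passed (smallest exact adjusted p = 0.150 in both cases). The kindling distance was still the larger in all 12 classes, with ratios of 1.002 to 1.42 without rat 3 and 1.09 to 1.28 without rat 4. Without rat 3 the distances were thus nearly equal in dense tiles above 90%, the class of the smallest ratio. The exact test has fewer arrangements with a rat left out, which raises its smallest p. Without both, the ratio was above 1 in 6 of 12 classes and ran from 0.908 to 1.59.

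**Figure D4:**
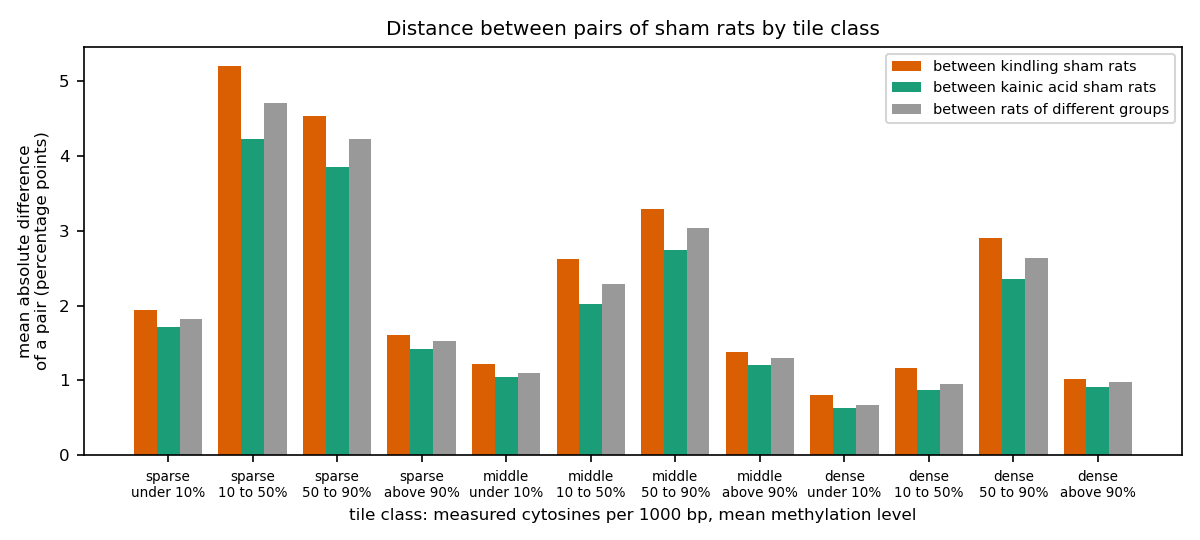
Mean absolute difference between pairs of sham rats in each density and level class, in percentage points. Bars are means over pairs, orange within kindling sham rats, green within kainic acid sham rats and grey across the groups. The orange bar is the tallest in each class, and the grey bar lies between the others.

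Single rats also held tiles of their own. A tile was counted as private to a rat when that rat lay at least 20 points above or below the nearest of the other 10 sham rats. The kindling sham rats 1 to 4 had 6, 23, 27 and 39 private tiles, and the kainic acid sham rats 1 to 7 had 2, 5, 5, 6, 19, 18 and 11. All but 4 of them were sparse, those 4 being in kindling rats 2 and 4. They were scattered, with at most 2 of a rat's private tiles in any stretch of 1 Mb. Kindling rats 3 and 4 and kainic acid rat 5, the rats with the largest mean distances, also had the most private tiles or, for rat 5, the most of its group.

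A principal component analysis of the 73040 autosomal tiles that ranged over at least 5 points gave no single leading axis. The first 4 components held 15.6, 13.4, 11.9 and 11.6% of the variance. The first set kindling rats 3 and 4 (2.42 and 2.60) against kindling rats 1 and 2 (-1.88 and -2.38), with the kainic acid rats between. The second was led by kindling rat 4 (3.77) and the third by kainic acid rat 5 (3.66). On the fourth, the group means differed (two-sided exact permutation test, p = 0.0121, adjusted 0.0485 over 4 components), although kindling rat 4 and kainic acid rat 6 overlapped with the other group.

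Tile by tile, very few differed between the sham groups. Of the 73040 tiles tested with limma, 2 were called at an adjusted p under 0.05, or 0.00274%, both higher in the kainic acid sham rats. With each rat left out in turn and the tiles selected anew, both were called each time, but the count rose, to 11, 6, 7 and 5 without kindling rats 1 to 4 in turn and to 5, 8 and 4 without kainic acid rats 5 to 7. With the tiles kept as they were, 0 were called without kindling rat 4 (smallest limma adjusted p = 0.0502). At an unadjusted p under 0.05 there were 4646 tiles (6.36%), 2375 higher (3.25%) and 2271 lower (3.11%) in the kainic acid sham rats. Tiles had to range over at least 5 points in these same rats to be tested, and a group difference helps a tile pass. Without that filter 8344 of 147493 tiles (5.66%) were under 0.05, 47.7% of them higher. Among the 73040 tested tiles, the groups did not overlap in 639 (0.875%), 297 with the kainic acid rats higher (0.407%) and 342 with them lower (0.468%). The median half-width of the 95% confidence interval of a tile's difference was 3.94 points, a width that goes with an unadjusted p of 0.05. Smaller differences were mostly not detectable here, and a call after adjustment asked for larger ones. Tile F, described below, differed by -13.3 points and was not called (limma adjusted p = 0.0865). By class, the share at an unadjusted p under 0.05 was 7.06% in sparse tiles of 50 to 90%, 6.82% above 90%, 6.58% at 10 to 50% and 4.05% under 10%. In the middle tiles it was 1.73, 4.07, 5.09 and 6.21% in order of rising level. Among dense tiles it was 0 of 26 tested under 10%, 2.77% at 10 to 50% and 4.13% at 50 to 90%, and 5 of 47 above 90%. The part of a class that was tested ran from 0.338% of dense tiles under 10% to 86.7% of sparse tiles of 50 to 90%.

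Both called tiles are sparse, of the 50 to 90% class, and lie on chromosome 5. Tile A, at chr5:68475001-68476000 of rn6, holds 3 measured cytosines. Its level was 66.5, 66.3, 66.5 and 66.1% in the kindling sham rats 1 to 4. In the kainic acid sham rats it was 76.7% at the lowest, 78.9% at the median and 81.9% at the highest. The groups did not overlap and differed by 12.8 points (95% confidence interval 9.84 to 15.7, limma adjusted p = 0.0117). Tile B, at chr5:63916001-63917000, also holds 3. Its level was 55.1, 32.4, 33.3 and 32.2% in the kindling sham rats 1 to 4, and 69.3, 71.9 and 76.1% at the lowest, median and highest of the kainic acid sham rats. Kindling rat 1 stood apart from its group but still below every kainic acid rat, and the difference was 34.1 points (95% confidence interval 26.1 to 42.0, limma adjusted p = 0.0117). The calls depended on the fit. In 1 limma fit over all 4 groups, where the spread of the seizure rats enters the variance, neither tile was called. The limma adjusted p was then 0.576 for tile A and 0.490 for tile B. On the sham rats without kindling rats 3 and 4 it was 0.113 and 0.116. Tile A was also lost with a range filter of 10 points (limma adjusted p = 0.0839) and with the share of zeros as a covariate (0.0559), and tile B without the range filter (0.0959). Genes near these tiles are not given, since no gene annotation of rn6 was used here.

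Tile A's difference came from 1 of its 3 cytosines. At position 68475665 on the minus strand the kindling sham rats had 0, 0, 0.820 and 0%, while the kainic acid sham rats had 32% at the lowest, 38.9% at the median and 45.8% at the highest. The cytosines at 68475639 and 68475741 were at 98.2 to 100% as means of both groups. Tile B's difference came from 1 CpG of its own, read on both strands. At 63916894 the level was 6.92% ± 10.6 (SD, n = 4) in kindling and 65.0% ± 4.82 (SD, n = 7) in the kainic acid group, and at 63916895 it was 11.5% ± 23.1 and 55.7% ± 7.16. The third cytosine, at 63916931, was at 96.3% in both groups. A tile mean of 66% or 33% in the kindling rats is thus an average of cytosines near 0 and near 100%.

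The other tiles of smallest p were not called and are given as values. Among those higher in the kainic acid sham rats, tile C (chr9:1993001-1994000) had 51.2% ± 2.05 in kindling and 62.9% ± 2.65 in kainic acid sham rats (limma adjusted p = 0.210). Its 3 cytosines differed by 10.4, 11.1 and 13.8 points, the one case of the 10 in which no cytosine stood out. Tile D (chr4:150397001-150398000) had 34.5% ± 9.28 and 59.6% ± 6.20 (adjusted p = 0.218). There the CpG at 150397564 and 150397565 went from 15.9 and 7.27% to 59.0 and 56.3%, while the CpG at 150397537 and 150397538, within the same tile, had 59.9 and 54.9% against 62.4 and 60.5%. Tile E (chr5:120892001-120893000) had 79.0% ± 3.27 and 93.1% ± 4.81 (adjusted p = 0.269), with overlap between the groups through kainic acid rat 7. Of its 6 cytosines only those at 120892091 and 120892092 differed by over 20 points. In these sentences the SDs are over 4 kindling and 7 kainic acid rats, as below.

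Among tiles lower in the kainic acid sham rats, tile F (chr5:64012001-64013000) had 97.4% ± 3.40 in kindling and 84.1% ± 2.97 in kainic acid sham rats. Tile G (chr4:80734001-80735000) had 46.7% ± 2.24 and 32.9% ± 3.02, and tile H (chr15:35323001-35324000) had 60.6% ± 11.5 and 26.1% ± 7.69. The limma adjusted p was 0.0865 for each of these 3 tiles. Tile H is the widest of them, at -34.5 points, and 3 of its 5 cytosines differed by over 20 points. Tile I (chr5:120954001-120955000) had 85.1% ± 3.47 and 66.4% ± 5.39 (adjusted p = 0.126), and 1 of its 3 cytosines, at 120954351, fell from 60.5 to 5.98% while the others stayed above 95%. Tile J (chr12:29933001-29934000) had 92.4% ± 1.23 and 80.6% ± 3.90 (adjusted p = 0.255). The groups did not overlap in tiles C, D, F, G, H, I and J.

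In most of these tiles 1 or 2 cytosines carried the difference, and the cytosines were also tested one by one. Of 691405 autosomal cytosines that ranged over at least 10 points, 21 were called at a limma adjusted p under 0.05, or 0.00304%, with 12 higher and 9 lower in the kainic acid sham rats. At an unadjusted p under 0.05 there were 39352, or 5.69% of those tested. The count rested on single rats too: it was 83, 60, 32 and 35 without kindling rats 1 to 4 in turn, and 46 and 48 without kainic acid rats 5 and 6. It was 0 in 1 limma fit over all 4 groups, with 45277 (6.55%) at an unadjusted p under 0.05. On M values 15 were called, of which 11 were among the 21. The called differences were 37.0 to 88.8 points, and the sham groups did not overlap at any of the 21. Choosing by p in these same rats favours both, and the share without overlap among all tested cytosines was not computed. For 12 of them the partner cytosine on the other strand of the CpG was also measured. All 12 partners moved the same way by more than 10 points, but they belong to the same CpGs in the same rats and are not independent. Both strands were called at 2 CpGs. Within 500 bp, 18 of the 21 had no measured neighbour, other than the partner, that differed by over 10 points the same way. Neighbours that differed the opposite way were not counted. The called cytosines at chr4:150231073 and 150231094 are such a case, at -66.1 and 55.0 points. The number of neighbours measured within 500 bp, other than the partner, ran from 1 to 155, and it was at most 9 for 16 of the 21. The like share over all tested cytosines was not computed.

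The smallest p belonged to the minus strand cytosine at chr12:30004618. It was at 39.3, 24.0, 1.37 and 25.2% in the kindling sham rats 1 to 4 and at 96.3% at the lowest, 98.2% at the median and 98.8% at the highest of the kainic acid sham rats (limma adjusted p = 0.000130). The kainic acid rats were uniformly methylated there and the kindling rats were not. Its partner at 30004617 had 50.7, 28.0, 0 and 36.0% in the kindling rats and 94.1 to 99.2% in the kainic acid rats. The opposite case was the CpG at chr1:61660662 and 61660663. The first of its cytosines was at 26.8, 50, 51.4 and 60% in the kindling sham rats and at 0 to 2.86% in the kainic acid sham rats (adjusted p = 0.0019), and the second fell from 37.9% ± 12.6 to 0.946% ± 1.20 (SDs over 4 and 7 rats, limma adjusted p = 0.0085). The largest difference, 88.8 points, was at chr17:60292393 on the minus strand. All 4 kindling sham rats had 0 to 1.41% there, and 6 of the 7 kainic acid sham rats had 98.0 to 100%, while kainic acid rat 4 had 31.1% (limma adjusted p = 0.0165).

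With gaps of at most 1 Mb joined, the called cytosines fell into 11 places. Of these, 7 held a lone cytosine and 2 held both strands of a single CpG, so most lay apart. Only 2 places held more than 1 CpG. One on chromosome 5, from 63624584 to 64012008, held 6 called cytosines within 387425 bp, 4 higher and 2 lower in the kainic acid sham rats, among them those of tiles B and F. Another, from 150206128 to 150397565 on chromosome 4, held 4, with 2 higher and 2 lower, among them that of tile D.

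The levels of single rats were followed along those 6 positions on chromosome 5. At the 4 cytosines that were higher in the kainic acid sham rats (63779652, 63779782, 63784793 and 63916894), kindling sham rat 1 had 12.3, 8.06, 21.2 and 22.7%, while rats 2 to 4 had 0 to 5.66%. The 7 kainic acid sham rats had 38.6 to 70.6% at these 4 positions. At the 2 that were lower in them (63624584 and 64012008), kindling sham rats 1 to 4 had 76.1, 85.2, 92.2 and 77.1% at the first and 77.5, 98.7, 97.4 and 99.2% at the second, and the kainic acid sham rats had 38.7 to 65.3%. Kindling rat 4 was thus beside rat 1 at the first and beside rats 2 and 3 at the second. The kainic acid sham rats were thus at intermediate levels at all 6 positions.

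The seizure rats, which had no part in choosing these cytosines, did not divide by model there. Kindling seizure rat 3 had 94.6 to 97.9% at the 4 positions and 8.89 and 2.13% at the other 2, beyond every sham rat. Kindling seizure rat 4 had 48.4 to 55.9% at the 4, as the kainic acid sham rats did. Kindling seizure rats 1 and 2 had at most 2.17%, close to kindling sham rats 2 to 4 and below kindling sham rat 1. Kainic acid seizure rat 2 had 3.19 to 8.33%, and kainic acid seizure rats 1 and 3 had 36.4 to 68.8%. A like pattern was seen farther along at 68475665, the cytosine of tile A, where kindling seizure rats 1 to 4 had 0.935, 1.49, 94.6 and 35.9% and kainic acid seizure rats 1 to 3 had 33.6, 1.54 and 35.8%.

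Over all 21 called cytosines, 7 differed in the same direction between kainic acid and kindling seizure rats as between the sham groups. The share over all tested cytosines was not computed. The 21 lie in 11 places and include both strands of 2 CpGs, so they are not independent. The CpG at chr1:61660662 and 61660663 was among them, at -36.2 and -33.4 points, with 0% in kindling seizure rat 3. Across all 18 rats the 378 values at these positions were at most 10% in 120 cases, 20 to 80% in 184 and at least 90% in 50. These include the sham values by which the positions were chosen, and the like shares over all cytosines were not computed. Among the 147 values of the seizure rats alone, 46 were at most 10%, 71 were 20 to 80% and 21 were at least 90%. Whether the DNA sequence of the rats differs at these positions was not tested.

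**Figure D5:**
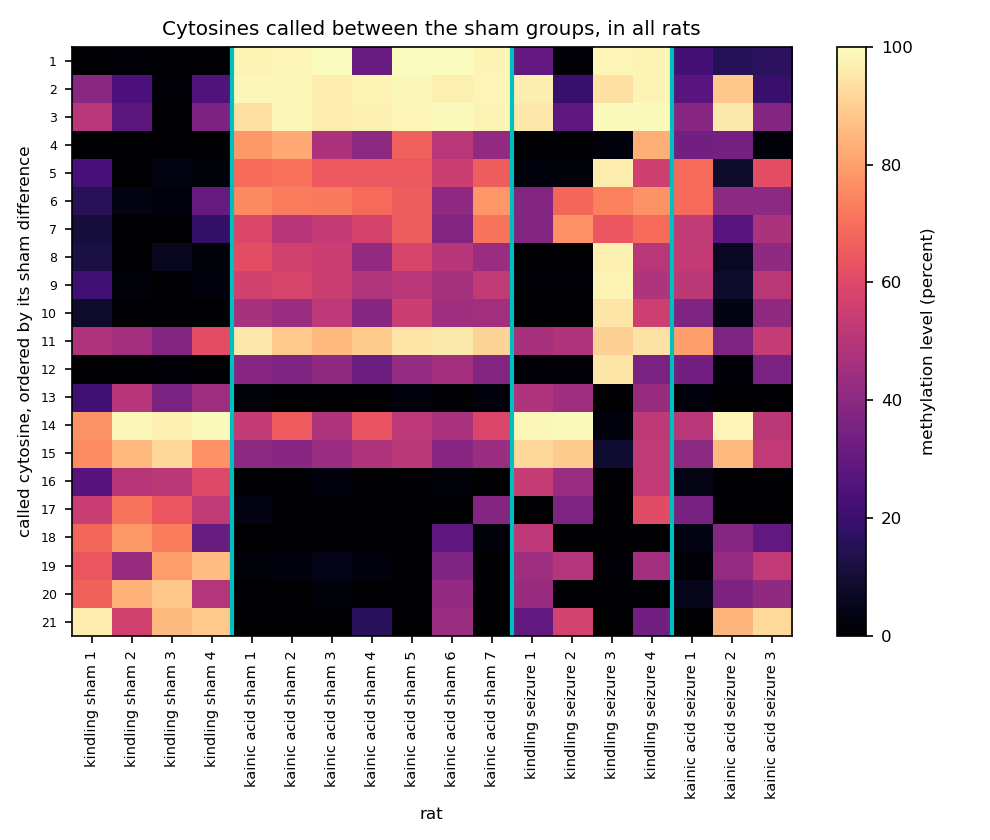
Methylation level, in percent, of the 21 cytosines called between the sham groups, in all 18 rats. Cytosines are ordered from the largest gain (88.8 points) to the largest loss in kainic acid sham rats, and lines part the 4 groups. The sham groups contrast because the cytosines were chosen for it; the seizure rats, on the right, keep the sham direction at 7 of 21, and kindling seizure rat 3 reaches values over 90% where no kindling sham rat does.

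For the tiles the seizure rats gave the same picture. Of the 2 called tiles, tile B kept its direction and tile A did not. Tile A was at 66.8, 66.1, 98.2 and 77.1% in the kindling seizure rats 1 to 4 and at 77.6, 66.7 and 78.1% in the kainic acid seizure rats 1 to 3. The signed mean of both tiles was 0.982 points between the seizure groups, beside 23.4 between the sham groups (two-sided exact permutation test over the 7 seizure rats, p = 0.800, where the smallest p of 35 arrangements is 0.0571). Of the 10 named tiles, 4 had the same direction in the seizure rats. Of the 4646 tiles with an unadjusted p under 0.05 in the sham rats, 2367 (50.9%) did, beside 36835 of all 73040 tested tiles (50.4%). Their signed mean was -0.0673 points in the seizure rats and 5.94 in the sham rats (exact permutation test, p = 0.914).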

How the data were processed

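Genomic DNA of left hippocampi was digested with MspI and bisulfite converted, per the labels' protocols. The deposited table holds methylation fractions (beta values, 0 to 1) for 2330883 cytosines, with 0 missing values. Per the submitters' processing notes, methylKit, Bismark, Bowtie2, Trim Galore and FastQC were used with rn6. Versions, coverage minimum and filters were not given in the sources used here, and read depth is unknown, so tests on read counts were not run.

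Fractions were multiplied to percent and averaged in tiles. Tiles ranging over at least 5 points and cytosines over at least 10 were tested with limma 3.58.1 (R 4.3.3, data.table, version 1.17.8) on the sham rats alone, with 9 residual degrees of freedom, a variance prior following the mean level and Benjamini-Hochberg adjustment. Classes, distances and library measures were tested by exact permutation over rats, and correlations over all sham rats by 100000 permutations (Python 3.11.15, numpy 2.4.6, pandas 2.3.3, scipy 1.17.1). Figures used matplotlib 3.10.9. The tile fit was tested on simulated data.

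Tiles named are the 2 called, within the 5 of smallest p in each direction, and cytosines the 3 of smallest p in each direction. Other called cytosines were described after their values were seen. The sham groups, classes and lists were chosen with earlier results of these data known. The tests of spread by class and of the shares of exactly 100% were added after seeing the data. Promoter lists, cell type markers and sequences were not analysed here, since no rn6 genome or annotation was used. Alternatives changed the scale, filters, tile length, class limits, thresholds, covariates and weights, added the replicate number as a block, or left out rats.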

Additional observations from a re-analysis of the deposited data

Results flagged for a closer look

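In groups of 4 to 10 rats, a rat was singled out when its gap to the nearest other rat of its group was too large a share of the group's range by Dixon's 95% limit. Chance gives about 1 in 20 such cases per group, and 8 of 64 tests met the limit.

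Kainic acid sham rat 5 had a mean distance of 2.53 points to its own group, and the next rat had 2.35. Kindling sham rat 1 was at 55.1% in tile B, where the next kindling rat had 33.3%. Kainic acid sham rat 7 was at 82.7% in tile E, where the next had 92.7%, and at 78.3% in tile I, where the next had 66.7%. Kainic acid sham rat 6 was at 43.3% in tile H, where the next had 25.2%. At chr5:68475665, kindling sham rat 3 had 0.820% and the other 3 had 0%. At chr5:63916894, kindling sham rat 1 had 22.7%, next to 3.33%, and kainic acid sham rat 6 had 55.4%, next to 64.5%.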

How the results depend on the processing

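No class passed the exact test under any alternative, and the sign of every class difference turned under at least 1. With level classes taken from the kainic acid mean alone, the sparse classes under 10, of 50 to 90 and above 90% gave -0.0439, -0.0331 and 0.0256 points, the middle ones of 50 to 90 and above 90% -0.0131 and 0.0483, and dense tiles above 90% 0.0259. With classes from the kindling mean alone the values moved the other way: sparse tiles under 10, of 10 to 50 and above 90% gave 0.243, 0.495 and -0.188 points, the last with an exact adjusted p of 0.218, the smallest of any class and alternative. With density limits of 8 and 20 cytosines, dense tiles of 50 to 90% gave 0.0101. Leaving out 1 rat at a time, the mean level difference ran from -0.119 to 0.0912 points. In order of rising level, the sparse classes ran from -0.0332 to 0.279, -0.161 to 0.708, -0.125 to 0.124 and -0.152 to -0.0226. The middle ones ran from -0.0679 to 0.270, -0.134 to 0.437, -0.190 to 0.143 and -0.0941 to 0.0051, and the dense ones from -0.115 to 0.263, -0.139 to 0.286, -0.236 to 0.0107 and -0.0841 to 0.0068. The distance between groups minus within groups ran from -0.0095 to 0.0287 points, or 0.112 without kindling rats 3 and 4, and the larger kindling distance from 0.349 to 0.529, or 0.0463 without kindling rats 3 and 4. The causes were not tested.

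The count of tiles called by limma was 0 in 1 fit over all 4 groups (4863 at an unadjusted p under 0.05, or 6.66%). It was 0 with 5 or more cytosines a tile (3117, or 6.31%), a filter that removes tiles A and B, which hold 3 each. At an adjusted p under 0.01 the count was 0, and under 0.10 it was 5. It was 1 without the range filter (8344 at an unadjusted p under 0.05, or 5.66%) and 1 with the share of zeros as a covariate (5147, or 7.05%). With a range of at least 10 points it was 2, of which 1 was shared. With M values, array weights or a robust prior it was 2, tiles A and B. Without 1 rat it was 2 to 11 and kept both tiles. With the tile set kept it was 6, 7 and 0 without kindling sham rats 2, 3 and 4 in turn. For rat 4 the smallest limma adjusted p was 0.0502, with 4778 tiles (6.54%) at an unadjusted p under 0.05. Without kindling rats 3 and 4 the count was 4, none of them shared. Called cytosines numbered 50 with a range of at least 20 points and 0 over all 4 groups (45277 at an unadjusted p under 0.05, or 6.55%). They numbered 15 with M values (11 shared), and 15 to 83 without 1 rat.

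The replicate numbers do not pair the sham rats: same-numbered rats correlated at -0.0118 to 0.0808, and 1 of 4 correlated best with its own number. With the number as a block, 0 tiles (4461 at an unadjusted p under 0.05, or 6.11%) and 20 cytosines, 3 of them shared, were called, on 3 residual degrees of freedom.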
